A study of Homo sapiens with 9 samples.

Results

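The genes described here are 9 components of the NRF2 oxidative stress pathway, taken by symbol from a fixed list and read in all 9 columns of both count tables. That list was chosen with earlier results of these data known. They are the transcription factor gene NFE2L2, its inhibitor gene KEAP1, and the target genes HMOX1, NQO1, GCLM, GCLC, TXNRD1, SRXN1 and OSGIN1. All 9 were present among the 18970 gene symbols of the tables, and all 9 passed the filter on low counts in the T>C reads and in the total reads.

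The cells were cranial neural crest cells (CNCCs) differentiated from human H9 embryonic stem cells, an established line, whose SOX9 alleles both carried an FKBP12-F36V degron tag, mNeonGreen and a V5 tag. The degrader dTAGV-1 was given at 500 nM, and cells were harvested at passage 4 at 0h, 3h or 24h, with relative SOX9 levels in the labels of 100%, 0% and 0%. Each group held 3 samples, 1 from each of the cultures S9CC13_R6, S9CC47_R5 and S9CC47_R6, which come from 2 clones of the tagged line (S9CC13 and S9CC47) and 2 differentiation batches (R5 and R6). All groups received 4-thiouridine (4sU, 100 uM) for the last 2 h. Labelling thus began 1 h (3h samples) or 22 h (24h samples) into the dTAGV-1 treatment, and incorporated 4sU was read as T>C conversions (SLAM-seq) in 3′ end libraries. The labels give dTAGV-1 also for the 0h samples, and the treatment text names DMSO as the vehicle control. Every sample carried the tag, so an effect of the tag itself is outside these comparisons.

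NRF2, the protein of NFE2L2, is kept low in unstressed cells because KEAP1 presents it to a ubiquitin ligase. Oxidants and electrophiles modify KEAP1, after which NRF2 accumulates, pairs with small MAF proteins and binds antioxidant response elements (AREs) of genes for glutathione synthesis, thioredoxin reduction, quinone reduction and heme breakdown. Neural crest cells are known as sensitive to oxidative damage during development.

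Matches to the core letters of the ARE (TGACNNNGC, searched on both strands) are shown because that element is what the target genes have in common. Windows from 1000 bases before to 50 after the RefSeq gene starts (GRCh38.p14, sequence read from hg38) were searched for NFE2L2, KEAP1, NQO1, GCLM, GCLC, TXNRD1, SRXN1 and OSGIN1. HMOX1 had no entry among the gene starts used and was not searched. KEAP1 held 2 matches and TXNRD1 held 3 over its annotated starts, while NQO1, GCLM, GCLC and OSGIN1 held 1 each. The windows of NFE2L2 and SRXN1 held no such letters. For comparison, 33.7% of 35116 windows of that length in the genome held at least 1 match. That share is counted by window and not by gene, and KEAP1, NFE2L2 and TXNRD1 had more than 1 window each. This length was chosen after seeing the data. The match nearest to a start is given for each of the 6 genes on the strand of the gene, 5′ to 3′, with the matching bases in capitals.
NQO1, chr16:69726999-69727023, minus strand, 455 bases before the start: agtcacagTGACTCAGCagaatctg
GCLM, chr1:93909448-93909472, minus strand, 34 bases before the start: cgatttctGCTTAGTCAttgtcttc
KEAP1, chr19:10502786-10502810, minus strand, 31 bases before the start: ccggctctGCTTAGTCAtggtgacc
TXNRD1, chr12:104215763-104215787, plus strand, 8 bases before the start: gtccttcgGCTCCGTCAgttcccac
GCLC, chr6:53545955-53545979, minus strand, 870 bases before the start: aggtcattGCTCTGTCAacacatat
OSGIN1, chr16:83952675-83952699, plus strand, 557 bases before the start: acaatctgTGACTTGGCcccagttt
The capitals of GCLM and KEAP1 are the same 9 letters, and those of NQO1 overlap the AP-1 core TGANTCA, which no other match did. Within 250 bases before to 50 after a start, matches were found in GCLM, KEAP1 and TXNRD1, against 13.3% of all 35116 windows of this shorter length, again counted by window. These are matches of letters only, and no binding was measured in these data.

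Total reads per library ranged from 16955633 to 28782678 and T>C reads from 3130673 to 5475800. Reads with a T>C conversion made up 15.9% to 21.3% of a library, least in the 3h library of S9CC13_R6. All 12 cranial neural crest markers examined reached 1 CPM (reads scaled to a common library total) in the libraries, as did 2 of 6 embryonic stem cell markers (not POU5F1, NANOG, ZFP42 or TDGF1), 3 of 6 neural, 2 of 4 glial, 1 of 5 chondrocyte and 0 of 4 macrophage markers. The summed level of the crest markers, which include SOX9, spanned 4335 to 4389 CPM at 0h, 5186 to 5416 CPM at 3h and 6460 to 6829 CPM at 24h. Between 0h and 24h the summed stem cell markers went from 350 to 414 CPM to 281 to 306 CPM, the chondrocyte markers from 30.7 to 41.2 CPM to 20.9 to 24.6 CPM, and the glial markers from 2.60 to 5.35 CPM to 0.32 to 1.05 CPM. ACAN, COL9A3, MATN1 and COMP stayed under 1 CPM, so the chondrocyte sum is mostly COL9A1. The stem cell sum is mostly LIN28A and DPPA4, and SOX10 and S100B of the glial list stayed under 1 CPM. These sums therefore do not measure numbers of cells of a type. The part of these shifts in marker sums in the changes below was not tested. SOX9 mRNA itself rose 2.22-fold in T>C reads at 24h (DESeq2 adjusted p = 7.28e-39), and since dTAGV-1 acts on the protein this does not check the depletion. In these bulk samples, fewer cells of a type and less RNA per cell cannot be told apart.

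Of the 9 genes, NQO1 and NFE2L2 were called higher after 24h of SOX9 depletion, in T>C reads and in total reads, and no member was called lower. Total reads include the T>C reads, so the 2 calls of a gene are not separate. The rise was 1.65-fold for NQO1 and 1.29-fold for NFE2L2 in T>C reads. Over all genes, DESeq2 called 4.98% of those tested in T>C reads (2.38% higher) and 15.0% in total reads (7.11% higher). At 3h, no member passed the test in either kind of read, where 1.79% and 1.89% of tested genes did. HMOX1, GCLM, GCLC, TXNRD1, SRXN1, OSGIN1 and KEAP1 did not pass it at any time.

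**Figure D1:**
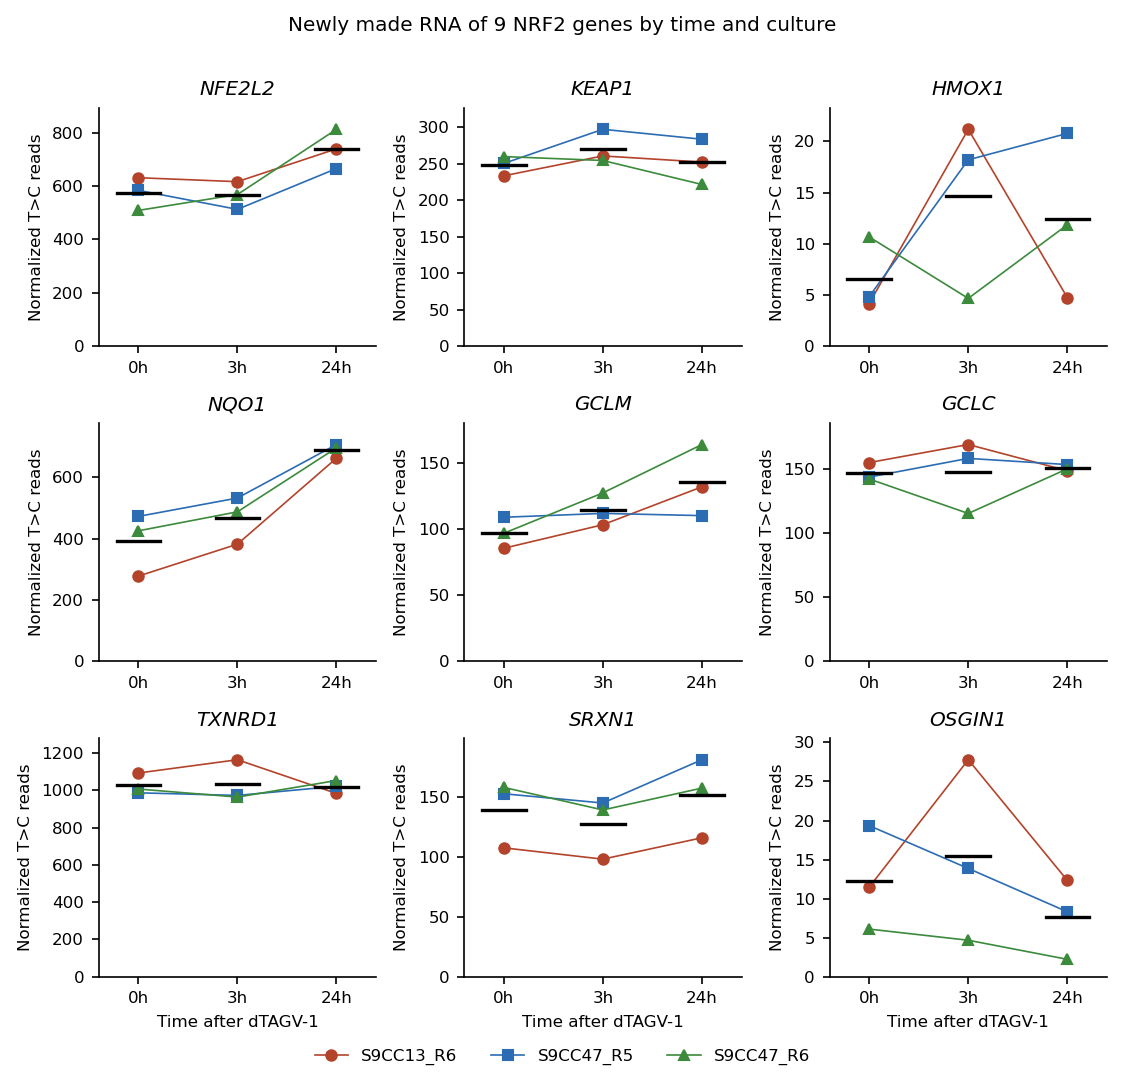
Normalized T>C reads (counts divided by DESeq2 size factors, linear axes from 0) of each gene against time after dTAGV-1; symbols joined by lines are the 3 cultures and black bars are means of 3 samples. NQO1 rises in every culture, from a mean of 392 at 0h to 689 at 24h, and NFE2L2 lies above its 0h values at 24h, while HMOX1 and OSGIN1 stay under 30 normalized reads with their groups overlapping.

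NFE2L2 lies on chromosome 2 (hg38, 177218667 to 177392756, minus strand) and has 5 exons in its canonical transcript. Its normalized T>C reads, given here and below in the order S9CC13_R6, S9CC47_R5 and S9CC47_R6, were 631, 584 and 509 at 0h. They were 617, 513 and 568 at 3h, and they were 740, 666 and 813 at 24h. All 3 values at 24h exceeded all values at 0h and at 3h, and the earlier groups overlapped. At 24h the log2 fold change in T>C reads was 0.37 with an SE of 0.129 (DESeq2 adjusted p = 0.0943). At 3h it was -0.03 with an SE of 0.125 (DESeq2 adjusted p = 0.998). Within cultures, the log2 difference between 24h and 0h was 0.23, 0.19 and 0.67, so S9CC47_R6 moved most. In total reads, NFE2L2 had 1237, 1018 and 1051 normalized reads at 0h and 1336, 1262 and 1517 at 24h, again without overlap (log2 fold change 0.30, SE 0.104, DESeq2 adjusted p = 0.0406). The mean at 3h was 1127 ± 102 total reads (SD, n = 3). Reads of NFE2L2 without a conversion did not pass the test at 24h (log2 fold change 0.23, SE 0.129, DESeq2 adjusted p = 0.303). They were higher in 2 cultures and lower in S9CC13_R6 (log2 difference -0.06). The NFE2L2 gene overlaps the protein-coding genes HNRNPA3 and AGPS, which are on the opposite strand, and whether counting used strand is not given in the sources used here.

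The call of NFE2L2 in T>C reads sits close to the threshold. It was lost without the surrogate variable (DESeq2 adjusted p = 0.12), and it was also lost without S9CC13_R6 (log2 fold change 0.23), without S9CC47_R5 (0.49) and without S9CC47_R6 (0.21). In total reads the call was likewise lost without each of them, with log2 fold changes of 0.27, 0.28 and 0.27.

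KEAP1, on chromosome 19 (10486125 to 10503558, minus strand), encodes the cysteine-rich adaptor that holds NRF2 down. Its normalized T>C reads were 233, 250 and 260 at 0h, 261, 297 and 254 at 3h. At 24h the mean was 252 ± 31.0 (SD, n = 3). The groups overlapped at both times. The log2 fold change at 24h was 0.05 with a 95% confidence interval of -0.27 to 0.36, and in total reads it was 0.06 with an interval of -0.16 to 0.29. As a fold, the T>C interval ran from 0.831 to 1.28. The KEAP1 protein was not measured.

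NQO1 encodes a quinone reductase that is widely used as a readout of NRF2 activity. The gene lies on chromosome 16 (69706996 to 69726668, minus strand), where a long noncoding RNA gene overlaps it on the other strand. In T>C reads it had 278, 473 and 426 normalized reads at 0h. At 3h the values were 382, 533 and 488. At 24h they were 663, 707 and 696. Every culture was higher at 3h than at 0h and higher again at 24h, and the 24h group lay above both earlier groups, which overlapped with each other. NQO1 T>C reads thus had a log2 fold change at 24h of 0.72 with an SE of 0.145 (DESeq2 adjusted p = 7.23e-05). The 3h value was 0.31 with an SE of 0.141, which did not pass (DESeq2 unadjusted p = 0.0266, adjusted p = 0.545). Of the 12037 genes tested, 5.40% had a larger log2 fold change at 24h.

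The cultures did not contribute equally to the NQO1 rise. The log2 difference between 24h and 0h in T>C reads was 1.25 in S9CC13_R6, which started lowest, 0.58 in S9CC47_R5 and 0.71 in S9CC47_R6. At 24h the 3 cultures lay within 663 to 707 normalized T>C reads, with an SD of 23.2 against 102 at 0h. The adjusted p was 1.00 without S9CC13_R6 (log2 fold change 0.61) and 0.107 without S9CC47_R6 (0.91), and the gene was still called without S9CC47_R5.

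Total NQO1 RNA also rose at 24h, with overlapping groups at 0h and 3h. The normalized total reads were 1907, 3188 and 2676 at 0h, 1961, 2801 and 3184 at 3h, and 4079, 4682 and 5157 at 24h. All 3 samples at 24h were above both earlier groups. Against 0h, the total reads of NQO1 had a log2 fold change of 0.67 after 24h, with an SE of 0.101 (DESeq2 adjusted p = 2.71e-09). After 3h it was 0.12, with an SE of 0.0976 (DESeq2 adjusted p = 0.914). From 3h to 24h the difference was 0.56, with an SE of 0.108 (DESeq2 adjusted p = 3.12e-05). In total reads, too, the 24h call was lost without S9CC13_R6 (0.46, adjusted p = 0.177) and without S9CC47_R6 (0.63, adjusted p = 0.451), and was kept without S9CC47_R5. The call between 24h and 3h was lost without S9CC13_R6 and without S9CC47_R5. Reads of NQO1 without a conversion gave 0.67 at 24h (DESeq2 adjusted p = 5.14e-09), in a comparison that called 12.1% of the tested genes. They hold RNA made before the label and any new RNA without a read conversion.

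The 24h group was also compared directly with the 3h group, since both share the 0h controls. In T>C reads no member was called in this comparison by DESeq2 or by edgeR. By DESeq2, 2 members had an unadjusted p under 0.05, as did 8.14% of all genes tested. NQO1 had a log2 fold change of 0.41 (DESeq2 adjusted p = 0.315) and NFE2L2 of 0.39 (adjusted p = 0.227). With the culture as a replicate block, both passed (NQO1 0.58, adjusted p = 0.00759, and NFE2L2 0.39, adjusted p = 0.0887). Of all genes tested, 1.14% were called in T>C reads and 5.39% in total reads, where NQO1 was the 1 member called.

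The glutathione synthesis genes did not pass the test. GCLM, the modifier subunit of glutamate-cysteine ligase (chromosome 1, 93885199 to 93909456, minus strand), had 85.4, 109 and 96.7 normalized T>C reads at 0h. The values were 103, 112 and 127 at 3h, and 132, 110 and 164 at 24h. The 24h values were all above the 0h values, by a narrow gap in S9CC47_R5, where the log2 difference was 0.02. GCLM had a log2 fold change of 0.35 at 24h, with an SE of 0.227 (DESeq2 adjusted p = 0.566). The T>C groups of GCLM, NQO1 and NFE2L2 did not overlap between 24h and 0h, and 11.0% of tested genes had all 3 values at 24h above those at 0h. In total reads this held for NQO1 and NFE2L2 and for 13.6% of tested genes. In total reads the GCLM groups overlapped at both times.

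GCLC, the catalytic subunit of the same enzyme (chromosome 6, 53497341 to 53616970, minus strand), had 155, 144 and 142 normalized T>C reads at 0h. The values were 169, 158 and 116 at 3h, and 149, 154 and 150 at 24h. The groups overlapped throughout, and the log2 fold change at 24h was 0.14 with a 95% confidence interval of -0.25 to 0.53. GCLC shares its span with the antisense gene GCLC-AS1.

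The genes of the thioredoxin arm did not pass the test either. TXNRD1, the cytosolic thioredoxin reductase (chromosome 12, 104215779 to 104350307, plus strand), had 1093, 987 and 1007 normalized T>C reads at 0h and 983, 1022 and 1053 at 24h. Its log2 fold change in T>C reads was 0.04 at 24h, and the 95% confidence interval of -0.16 to 0.24 was the narrowest among the members. In total reads TXNRD1 was lower at 3h (1941, 1898 and 2045) than at 0h (2468, 2062 and 2135) in every culture, without overlap. That difference did not pass the test (log2 fold change -0.18, SE 0.0877, DESeq2 adjusted p = 0.561), and 4.15% of tested genes had all 3 total values at 3h below all values at 0h. The T>C reads of TXNRD1 at 3h (1164, 973 and 964) overlapped those at 0h.

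SRXN1 encodes sulfiredoxin, which repairs overoxidised peroxiredoxins (chromosome 20, 646615 to 653200, minus strand). It had 107, 152 and 158 normalized T>C reads at 0h. The values were 97.9, 145 and 139 at 3h, and 116, 181 and 157 at 24h. The time groups overlapped, and the cultures stood apart instead, since S9CC13_R6 was lowest at every time. SRXN1 at 24h had a log2 fold change of -0.03 with a 95% confidence interval of -0.46 to 0.40. A second protein-coding annotation on the same strand overlaps the SRXN1 span, so its reads may be shared. Protein-coding genes on the same strand also overlap the spans of TXNRD1 (EID3) and OSGIN1 (MLYCD).

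HMOX1 and OSGIN1 were too sparse to show any but a large change. HMOX1, the heme oxygenase gene that oxidants and heme induce (chromosome 22, 35380361 to 35394214, plus strand), had 4, 4 and 14 T>C counts at 0h, 16, 21 and 4 at 3h, and 5, 20 and 16 at 24h. S9CC13_R6 and S9CC47_R5 were higher at 3h and S9CC47_R6 was lower. At 24h the fold change in T>C reads was 2.17 with a 95% confidence interval of 0.743 to 6.35 (DESeq2 adjusted p = 0.612). In total reads, where the counts were 32 to 74, the fold was 1.25 with an interval of 0.752 to 2.07. OSGIN1, an oxidative stress induced growth inhibitor gene (chromosome 16, 83931311 to 83966332, plus strand), had 11, 16 and 8 T>C counts at 0h, 21, 16 and 4 at 3h, and 13, 8 and 3 at 24h. Its groups overlapped in both kinds of read, and the interval of the fold at 24h in T>C reads was 0.330 to 2.44.

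**Figure D2:**
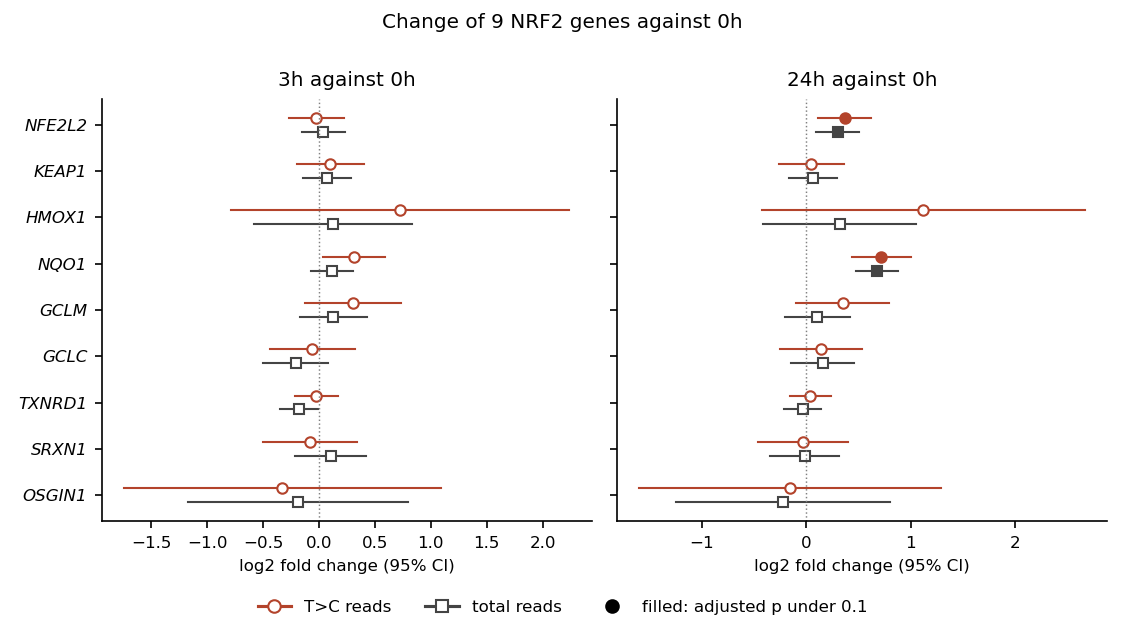
Log2 fold change against 0h at 3h and at 24h of each gene with its 95% confidence interval, for T>C reads (circles) and total reads (squares); filled symbols have a DESeq2 adjusted p under 0.1. NQO1 (0.72 in T>C reads) and NFE2L2 (0.37) are the genes with filled symbols, at 24h, and HMOX1 and OSGIN1 have the widest intervals.

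Counted over the 9 genes, DESeq2 called 2 in T>C reads at 24h, both higher, among 12037 genes tested. Of those, 4.98% were called and 2.38% were called higher. In total reads it called NQO1 and NFE2L2 again, also higher, among 11710 genes tested. Of those, 15.0% were called and 7.11% were called higher. The members are few and were chosen with earlier results of these data known. These counts, and the medians that follow, are therefore descriptive and are not a result about the members as a group. The median log2 fold change of the members was 0.14 in T>C reads and 0.10 in total reads at 24h, beside 0.00147 and 0.00363 for all genes tested. At 3h no member was called in T>C reads or in total reads, by DESeq2 or by edgeR. By DESeq2, 1 member had an unadjusted p under 0.05 in each kind of read, beside 7.33% and 8.22% of all genes tested. The member medians at 3h were -0.02 and 0.07.

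**Figure D3:**
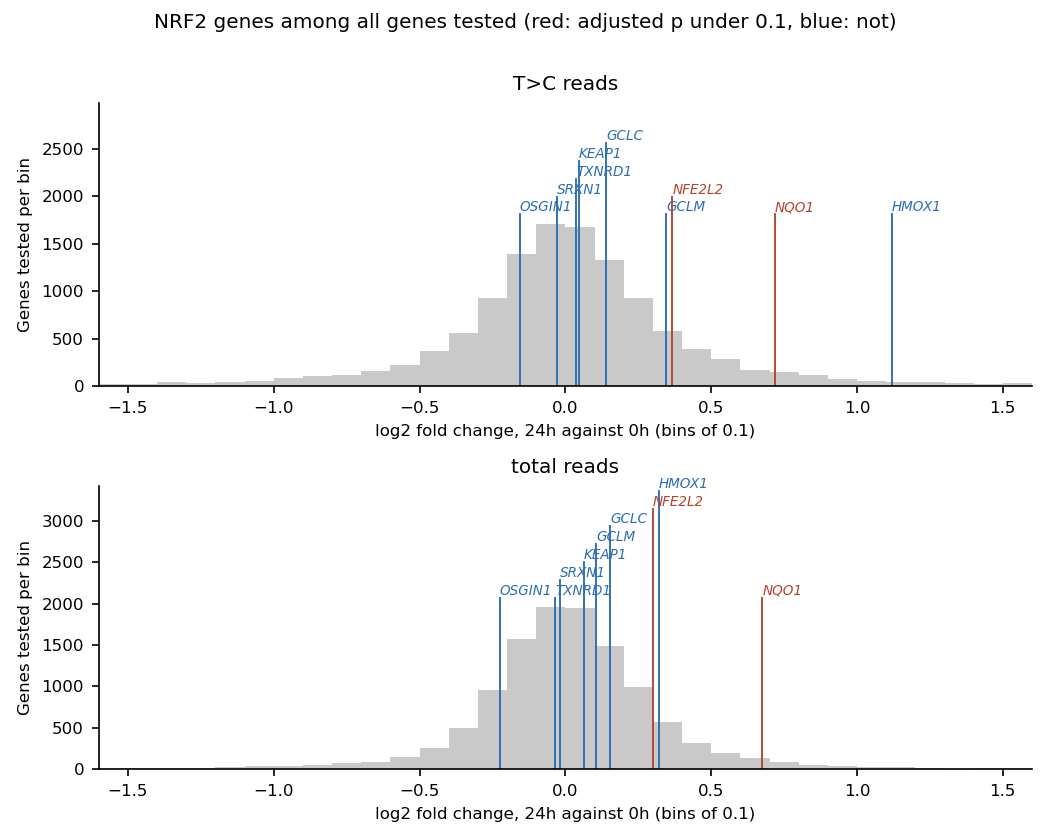
Number of genes tested per bin of 0.1 in log2 fold change at 24h against 0h (grey), with the members as labelled lines, for T>C reads above and total reads below; the axis leaves out 283 and 70 genes with changes beyond 1.6. The members other than HMOX1, NQO1, NFE2L2 and GCLM sit between -0.16 and 0.14 in T>C reads, in the middle of the distribution.

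The T>C share of a gene, the percent of its reads that carry a conversion, shows how much of its RNA was made during the 2 h label, though it also depends on how many T bases the reads cover. At 0h the mean share was 53.2% ± 6.66 for NFE2L2 (SD, n = 3), above 91.4% of the 8961 genes with at least 100 total reads in each sample, for which the median was 26.3%. It was 49.1% ± 1.61 for GCLC, 47.2% ± 4.00 for TXNRD1, 46.1% ± 5.90 for SRXN1 and 43.0% ± 7.48 for OSGIN1. Neighbours in this order differed by less than the larger of their SDs. GCLM (32.5% ± 9.93) and KEAP1 (31.6% ± 3.41) lay below them, and NQO1 (15.4% ± 1.08) and HMOX1 (14.2% ± 4.84) were lowest. The NQO1 share was below that of 78.2% of those genes. HMOX1, with 32 to 74 total reads per library, lies outside that set, and its 0h shares rest on 4, 4 and 14 T>C reads. NFE2L2 thus had about 3.47 times the share of NQO1. Over the last 250 bases of the canonical transcript, T made up 38.0% in NFE2L2, 30.4% in NQO1 and 23.6% in KEAP1, against a median of 32.4% over 8800 genes, and its part in the order was not tested.

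**Figure D4:**
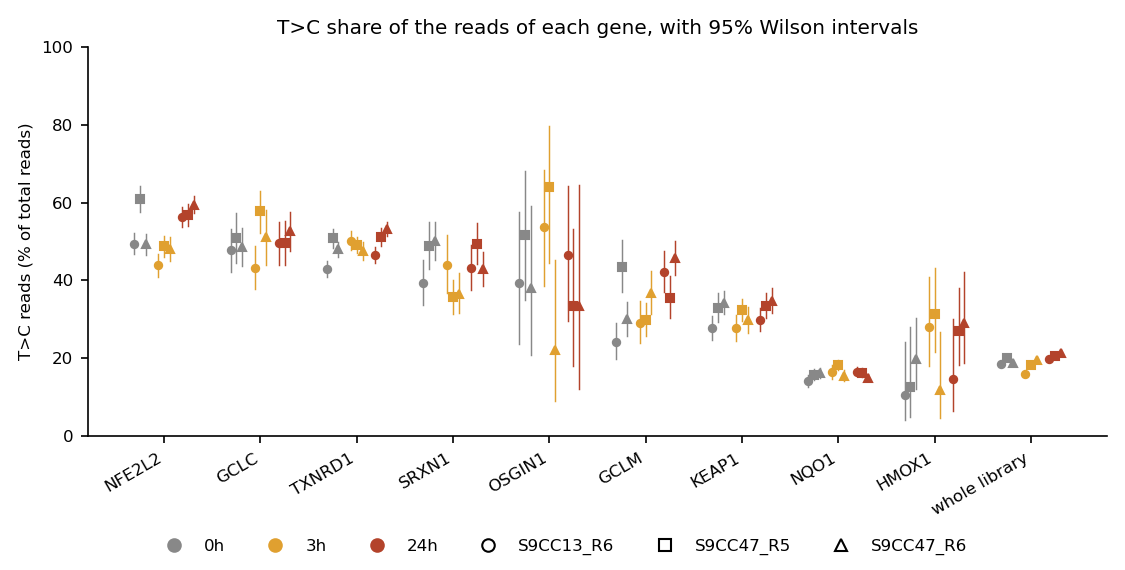
T>C reads as percent of total reads for each gene, ordered by the mean at 0h, and for the whole library; each symbol is 1 culture at 1 time (colour) and bars are Wilson 95% intervals, which cover counting error only. NFE2L2 lies between 43.9% and 60.9% and NQO1 between 14.1% and 18.3% in all samples, whereas the intervals of HMOX1 and OSGIN1 are the widest.

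For NQO1 the mean share of 15.4% at 0h compared with 16.7% ± 1.43 (SD, n = 3) after 3h and 15.9% ± 0.831 after 24h, while its total reads rose. The NFE2L2 share was 49.5%, 60.9% and 49.3% at 0h, 43.9%, 48.7% and 48.0% at 3h, and 56.4%, 56.8% and 59.5% at 24h. The 3h values of NFE2L2 were all below those at 0h, by a mean of -6.34 points, and this was the 1 of 18 comparisons of a member's share with 0h at the smallest p that 3 samples against 3 allow (two-sided exact permutation p = 0.1, adjusted p = 0.75). Relative to the share of the whole library, the exact permutation p was 0.2. This design cannot reach a p of 0.05.

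Whether T>C reads changed differently from unconverted reads was asked by a test of read kind by time. Unconverted reads can include new RNA without a read conversion. They are therefore not older RNA alone, and the test can miss a difference between new and older RNA. DESeq2 and edgeR called no member at 3h or at 24h, and DESeq2 called 0.324% and 0.0166% of all genes. At 3h, NQO1 and TXNRD1 had an unadjusted p under 0.05, as did 4.29% of all genes tested. For NQO1, T>C reads exceeded unconverted reads in their change by a log2 difference of 0.31 at 3h (SE 0.138, DESeq2 adjusted p = 0.976) and of -0.05 at 24h (SE 0.134, adjusted p = 1.00). The 95% confidence interval of the ratio at 24h was 0.805 to 1.16. For TXNRD1 the log2 difference at 3h was 0.28 (SE 0.140, adjusted p = 0.999).

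The cultures differed in NQO1 and SRXN1. Both genes were lower in S9CC13_R6 than in S9CC47_R6, a different clone of the same batch, when the fit held time and culture as terms. In total reads NQO1 was 0.704 times as high (95% confidence interval 0.597 to 0.832, DESeq2 adjusted p = 0.00401) and SRXN1 was 0.653 times as high (0.512 to 0.833, adjusted p = 0.0317). These 2 of 9 genes stand beside 3.38% of all tested genes called in this comparison. The SRXN1 values in S9CC13_R6, 264, 186 and 272 total reads at 0h, 3h and 24h, were below all 6 values of the other cultures, which ranged from 320 to 407. The 3 samples of a culture are not separate cultures, so these p-values compare these cultures and not clones in general.

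T>C reads gave the same direction without a call. No member was called in T>C reads by DESeq2 or by edgeR, where DESeq2 called 1.32% of all genes. By DESeq2, 3 members had an unadjusted p under 0.05, as did 8.84% of all genes tested. The log2 differences were -0.33 for NQO1 (DESeq2 adjusted p = 0.447) and -0.50 for SRXN1 (adjusted p = 0.349). OSGIN1 went the other way, with a log2 difference of 2.00 in T>C reads (SE 0.721, adjusted p = 0.221) and of 1.20 in total reads (SE 0.517, adjusted p = 0.257), at 3 to 21 T>C counts. Without the 3h libraries neither NQO1 nor SRXN1 was called in total reads (NQO1 -0.41 and SRXN1 -0.43 on the log2 scale). Without the 24h libraries SRXN1 was not called (-0.63). The 3h library of S9CC13_R6 also had the smallest share of T>C reads, and its part in these differences was not tested. Between S9CC47_R5 and S9CC47_R6, which are 2 batches of 1 clone, DESeq2 and edgeR called no member in T>C reads or total reads. Of all genes, 0.69% and 1.65% were called by DESeq2. OSGIN1 had an unadjusted p under 0.05 in both, as did 5.98% and 8.41% of all genes tested.

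**Figure D5:**
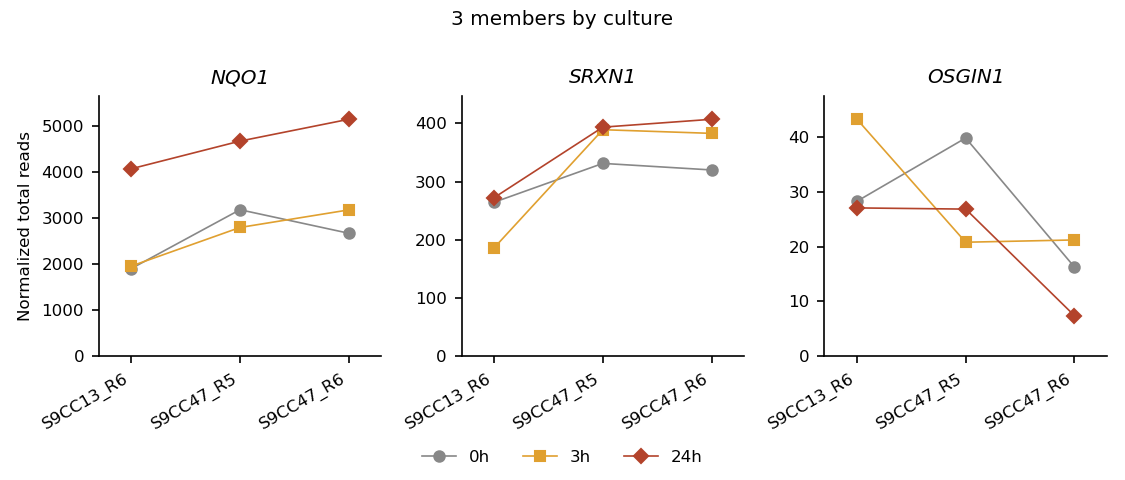
Normalized total reads of NQO1, SRXN1 and OSGIN1 (linear axes from 0) by culture, with 1 line for each time. S9CC13_R6 has the lowest SRXN1 values at every time (186 to 272) and the lowest NQO1 values at every time, and the 24h line of NQO1 lies above the others in each culture.

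Other genes of the pathway were read from 7 lists of 103 genes chosen for their roles, with earlier results of these data known. In T>C reads, 85 of them were tested. At 3h IDH1 was called higher and none lower, and at 24h FTL and GPX4 were called higher and BACH2 lower, which is 3.53% of the list genes tested, beside 4.98% of all genes. The median log2 fold change over the lists was 0.00150 at 3h and 0.03 at 24h, against -0.01 and 0.00147 for all genes tested. In total reads, 87 were tested, none was called at 3h, and at 24h 6 were called higher (FBXW11, FTL, GPX4, IDH1, MGST1 and PRDX3) and 4 lower (BACH2, GSTM4 and PRDX4 among them), which is 11.5% of the list genes tested, beside 15.0% of all genes. These shares lie below the background and are not a result about the pathway. Their median was 0.07 at 24h, against 0.00363 for all genes tested. Of these 14 calls at 3h and 24h, none was made without S9CC13_R6 or without S9CC47_R6, and 6 were made without S9CC47_R5. With culture as a replicate block 9 were kept, and without the surrogate variable 7 were kept. IDH1 at 3h, GPX4 in both kinds of read, FTL in total reads and PRDX4 lost their calls in both of these fits.

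Among the regulators of NRF2, 15 of 16 were tested in T>C reads. BACH2, a repressor that binds ARE-like sites with small MAF proteins, fell by 0.89 on the log2 scale at 24h (DESeq2 adjusted p = 0.000511), from 198 ± 7.08 to 108 ± 2.67 normalized T>C reads (SD, n = 3 each), and was lower in 3 of 3 cultures. In total reads it went from 357 ± 15.1 to 225 ± 33.2. Both BACH2 calls were lost without any 1 of the cultures. The log2 fold changes were then -0.93 to -0.77 in T>C reads and -0.98 to -0.56 in total reads. FBXW11, a subunit of a ubiquitin ligase that can target NRF2, rose in total reads from 499 ± 18.4 to 635 ± 56.4 (log2 fold change 0.36, adjusted p = 0.0484). The FBXW11 call was also lost without any 1 of the cultures (0.18 to 0.47). No other regulator on the list was called, MAFF, MAFG, MAFK, CUL3 and BACH1 among them.

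In the heme and iron list, FTL, the ferritin light chain, rose by a log2 fold change of 0.52 in T>C reads at 24h (adjusted p = 0.000214), from 1289 ± 287 to 1873 ± 55.9, and was higher in 3 of 3 cultures. FTL was the 1 gene of the 10 tested in that list to be called, which is 10.0% of them beside 4.98% of all genes in T>C reads. A single call is not a result about the list. The FTL call in T>C reads was lost without S9CC13_R6 and without S9CC47_R6. For NADPH supply, IDH1 rose at 3h in T>C reads (0.46, DESeq2 adjusted p = 0.00235), from 579 ± 122 to 750 ± 148, and was higher in 3 of 3 cultures. That call was lost with the replicate block (0.37, DESeq2 adjusted p = 0.39) and without the surrogate variable (0.39, adjusted p = 0.606), and the value was 0.15 without S9CC47_R6.

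In total reads at 24h, 3 of 21 glutathione genes and 2 of 14 thioredoxin and peroxiredoxin genes were called, 14.3% of each list, near the 15.0% of all genes. MGST1, a microsomal glutathione transferase, rose by 0.45 (adjusted p = 0.000465), from 1854 ± 243 to 2797 ± 593. PRDX3, the mitochondrial peroxiredoxin, rose by 0.53 (adjusted p = 0.000113). The PRDX3 call was lost without the surrogate variable (0.86, DESeq2 adjusted p = 0.195), and its value was 0.039 without S9CC13_R6. PRDX4, that of the endoplasmic reticulum, fell by 0.25 (adjusted p = 0.0565) and GSTM4, a cytosolic glutathione transferase, fell by 0.36 (adjusted p = 0.0453). The rise of GPX4, which reduces lipid peroxides, also depended on the surrogate variable. Its log2 fold change in T>C reads was 1.13 (adjusted p = 0.00505) with that term and 0.50 (adjusted p = 0.875) without it, and its normalized T>C reads were 84.4 ± 39.7 at 0h and 116 ± 87.1 at 24h, higher in 2 of 3 cultures. With culture as a replicate block, the GPX4 value was 0.20 (adjusted p = 0.902). Of the 13 tested genes for carbonyl and quinone detoxification and export, the group to which NQO1 belongs by function, and the 3 for superoxide and peroxide removal, none was called in T>C reads at either time, by DESeq2.

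The members followed each other only loosely across the 9 samples. These samples share 3 cultures and 3 times, so the values are descriptive. Pearson's r between log2 T>C reads was 0.79 for NQO1 and GCLM, 0.61 for NFE2L2 and GCLM, 0.47 for NFE2L2 and NQO1, and -0.59 for NFE2L2 and KEAP1. For TXNRD1 and SRXN1 it was -0.58. Among 8669 genes compared over the same 9 samples, the pattern of NQO1 was most like those of TMEM41B (r = 0.98) and RIOK2 (0.97). These are the highest of many values and are not a result about NQO1. KEAP1 and TXNRD1, whose T>C groups overlapped, had best matches of 0.93 and 0.97.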

How the data were processed

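Newly made and total RNA were measured by SLAM-seq in 9 samples. The authors deposited 2 tables of raw counts per gene symbol, of reads with T>C conversions and of all reads, made with slamdunk on hg38 after adapter trimming with skewer. T>C reads undercount new RNA wherever 4sU went in without a read conversion.

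The members and the pathway lists were chosen with earlier results of these data known. Testing covered protein-coding genes that reached 1 CPM in at least 3 samples and was done with DESeq2 1.42.0 (R 4.3.3), with differentiation batch, 1 surrogate variable (sva 3.50.0) and time as terms, independent filtering off, and calls at a Benjamini-Hochberg adjusted p under 0.1 over all genes. Cultures were compared with time and culture as terms. The interaction fit used T>C and unconverted counts (total minus T>C). Shares were tested by exact permutation, with Wilson intervals at 95%. Scripts were tested on simulated data. Samples of a culture share clone and batch by their titles, so culture pairs them across times (mean correlation of deviations 0.131 in T>C and 0.273 in total reads). Beyond the members, list genes were named where called, up to 5 each way with a mean of at least 50 normalized reads. Alternatives were edgeR 4.0.16, a replicate block, no surrogate variable, other filters and size factors, and leaving out cultures or times. The unconverted fit, the search of 1000 bases before a start the calls of list genes by setting and the comparison of 24h with 3h over all list genes were chosen after seeing the data. Some genes that met the naming rules are not reported here.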

Additional observations from a re-analysis of the deposited data

Results flagged for a closer look

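For 6 of the members and list genes the effect at 24h differed from that at 3h by the DESeq2 test of 24h against 3h. Both effects are against the shared 0h samples, and NQO1 was the 1 member among the 6. Of the list genes tested, 4.60% were called in total reads and 1.18% in T>C reads, beside 5.39% and 1.14% of all genes. These shares lie near the background and are not a result about the pathway. NQO1 had the smallest adjusted p, with an effect in total reads larger at 24h by 0.56 on the log2 scale (DESeq2 adjusted p = 3.12e-05). In total reads the difference was 0.51 for MGST1 (DESeq2 adjusted p = 0.000592), 0.51 for PRDX3 (adjusted p = 0.0017) and 0.33 for GPX4 (adjusted p = 0.028). SESN2, a sestrin of the thioredoxin and peroxiredoxin list that fell outside the naming rule, had a lower effect at 24h (-0.27, DESeq2 adjusted p = 0.0782), and its call was lost without any 1 of the cultures. Without the surrogate variable the calls of GPX4 (-0.25, adjusted p = 0.797) and PRDX3 (0.94, adjusted p = 0.171) were lost, and without S9CC13_R6 no list gene kept its call, PRDX3 being at 0.15 and MGST1 at 0.49. In T>C reads the difference was 0.41 for FTL (DESeq2 adjusted p = 0.0623).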

How the results depend on the processing

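Over the 9 genes at 24h, T>C reads gave 2 calls by edgeR, with culture as a replicate block and with size factors from total reads. They gave 1 call without the surrogate variable, 1 with all genes of at least 1 count and 1 with a mean of at least 20 counts, and 0 to 1 with a culture left out. In total reads at 24h leaving out a culture gave 0 to 1 calls, and at 24h against 3h it gave 0 to 1. For 24h against 3h in T>C reads, 2 members were called with the replicate block, 1 without the surrogate variable and 1 with size factors from total reads. Between S9CC13_R6 and S9CC47_R6, edgeR called 1 member in total reads, and leaving out a time gave 0 to 2. The share comparison at the smallest exact p became 0 of 18 relative to the library share. The replicate block changed no other call of a member. Leaving out a culture leaves 2 samples a group, and over all genes the T>C calls at 24h then fell from 599 to between 54 and 251, and the total calls from 1751 to between 56 and 719.

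Signs turned for uncalled values of the members and for the called total-read values of IDH1 and GPX4. At 3h in T>C reads the log2 fold change ranged with a culture left out from -0.043 to 0.055 for NFE2L2, from -0.11 to 0.16 for GCLC, from -0.038 to 0.14 for TXNRD1 and from -0.43 to 0.95 for OSGIN1. At 24h it ranged from -0.020 to 0.15 for KEAP1, from -0.050 to 0.067 for TXNRD1, from -0.27 to 0.21 for SRXN1 and from -1.29 to 0.85 for OSGIN1. In total reads it ranged from -0.27 to 0.14 for NQO1 at 3h and from -0.064 to 0.34 for IDH1 at 24h. Without the surrogate variable the 3h values were 0.00359 for GCLC, 0.00549 for TXNRD1 and 0.40 for OSGIN1, and the 24h values were -0.012 for TXNRD1 and 0.11 for SRXN1. With the replicate block they were 0.00374 for TXNRD1 and 0.15 for OSGIN1 at 3h, -0.010 for TXNRD1 and 0.11 for SRXN1 at 24h, and -0.074 for GPX4 in total reads at 24h. The cause was not tested.

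Over all genes, edgeR called 968 against 599 in T>C reads at 24h, and 267 against 137 at 24h against 3h, where the replicate block called 530 and no surrogate variable 373. For total reads at 24h against 3h the block called 1544 against 631, and at 3h against 0h it called 141 against 221. Without the surrogate variable 118 were called there. Depth limits HMOX1 and OSGIN1, which had at most 21 T>C counts in a library.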
